A study of Mus musculus with 8 samples.

Results

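The genes described here make, use and recycle glutathione or remove superoxide and peroxides. They were the glutathione transferases, glutathione peroxidases, peroxiredoxins, thioredoxins and their relatives, superoxide dismutases, the enzymes of glutathione synthesis and recycling, and NRF2 (Nfe2l2) with its repressor KEAP1 and the target genes Nqo1, Hmox1 and Srxn1. Genes were taken by symbol from the deposited count table, and a symbol was a member if it had 10 or more counts in at least 4 libraries. Of its 25240 symbols, 71 matched and 62 met the minimum, and all 62 were among the 14284 genes tested. Gstm3, with 15 counts in its highest library, Gpx2, Gpx2-ps1, Gpx5, Gstt4, Mgst2, Prdx6b, Txndc2 and Txndc8 were below the minimum, and the last 2 had 0 counts in every library.

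The RNA came from kidney cells of mice of the genotype p16-tdTomato, in which chronic kidney disease had been induced by adenine in the diet. The cells formed 2 groups, Tomato-positive (4 libraries) and Tomato-negative (4 libraries), and both had the same genotype and treatment. Each title identifier (CKD627_1, CKD627_2, CKD523_2 and CKD523_3) was shared by 1 library of each group, and the meaning of its prefix is not given by the labels. The series title names senescent cells of the diseased kidney as its subject. Neither the build of the reporter, nor the sorting of the cells, nor the age of the mice is stated in the sources used here. Whether identifiers stand for separate animals is not stated either, so p-values measure the spread between these libraries, which may be technical in part.

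Glutathione is a tripeptide that cells use to reduce peroxides and to tag reactive compounds for export, and the proximal tubule of the kidney takes up its building blocks from the filtrate and holds much of the enzyme set for its use. Glutathione peroxidases and peroxiredoxins reduce hydrogen peroxide and lipid peroxides, and draw their electrons from glutathione and thioredoxin. The transcription factor NRF2 raises many of these genes when KEAP1 no longer marks it for breakdown.

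Total counts per library lay between 13474439 and 19886202, so that 1 CPM (a count scaled to the library total) stood for 13.5 to 19.9 counts. The tdTomato transcript lay at 3167 to 4143 CPM in Tomato-positive libraries and at 79.5 to 159 CPM in Tomato-negative libraries, while Cdkn2a, which encodes p16, lay at 0.339 to 2.87 CPM in Tomato-positive and 0.285 to 2.40 CPM in Tomato-negative libraries. The labels call all cells proximal tubular epithelial cells. All 15 proximal tubule markers were detected, with a summed level of 4881 to 12847 CPM in Tomato-positive and 4510 to 21980 CPM in Tomato-negative libraries, but markers of other nephron segments were present too. With the identifier as a block, 5 of 15 proximal tubule markers fell and 0 rose in Tomato-positive cells (median log2 difference -0.47), 8 of 8 principal cell markers rose (median 1.55), and 4 of 6 loop of Henle markers (median -1.11) and 3 of 4 distal tubule markers (median -2.06) fell. Summed principal cell markers lay at 1018 to 5648 CPM in Tomato-positive and 217 to 2461 CPM in Tomato-negative libraries, and summed loop of Henle markers at 1665 to 7286 CPM in Tomato-positive and 3758 to 14895 CPM in Tomato-negative libraries. Of the other lists 2 of 6 intercalated cell markers fell, 1 of 5 tested macrophage markers rose, and 0 of 6 endothelial and 0 of 5 tested fibroblast markers passed in either direction. No marker gene was at 0 in all libraries. The part of these markers in the differences below was not tested, and in bulk RNA fewer cells of a type and less RNA per cell cannot be told apart.

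NRF2 binds the antioxidant response element, so promoters of members were read for its core, TGACNNNGC, where N is any base, on both strands. Promoter windows ran from 250 bases before to 50 bases after each gene's start in RefSeq (GRCm38.p6), and 53 of the 62 members had 1 or more. The core was found in 12 of these 53 genes (22.6%), against 14.0% of the 27025 genes in the table, and in 17.1% of member promoters against 12.4% of all 32851 promoters. The longer form TGACTCAGC, which contains the core, was found in 1 of the 53 member genes, Prdx1 (1.89%), against 0.503% of all genes. By promoter it was found in 1.43% of member promoters against 0.454% of all promoters. All 10 members that fell in Tomato-positive cells in the paired test described below had a promoter in the table, and 3 of them held the core. Their windows are shown because these members moved together, followed by those of Gclm and Txnrd1, 2 well known NRF2 targets that did not pass that test. Capitals mark the core, which reads GCNNNGTCA where it lies on the strand opposite to the gene.
Gstm5: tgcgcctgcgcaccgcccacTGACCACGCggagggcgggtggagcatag
Prdx1: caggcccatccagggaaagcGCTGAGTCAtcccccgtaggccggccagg
Sod1: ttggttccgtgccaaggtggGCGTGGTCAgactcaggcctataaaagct
Gclm: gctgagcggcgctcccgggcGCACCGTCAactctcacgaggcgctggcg
Txnrd1: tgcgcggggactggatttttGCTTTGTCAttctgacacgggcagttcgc
All 5 genes lie on the plus strand. Distances below are counted from the RefSeq start that set the window, which can differ from the annotated gene positions given further on. The windows are chr3:107895792-107895840 for Gstm5, with the core starting 42 bases before the gene start, chr4:116685446-116685494 for Prdx1 (133 bases before), chr16:90220686-90220734 for Sod1 (56 bases before), chr3:122245403-122245451 for Gclm (134 bases before) and chr10:82859094-82859142 for Txnrd1 (92 bases before the start of 1 of its transcripts). A match in letters is a description and was not tested as a binding site.

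Members were lower in Tomato-positive than in Tomato-negative cells more often than higher, by modest amounts. In the fit without pairing 0 of 62 members passed an adjusted p of 0.05 (edgeR quasi-likelihood test, Benjamini-Hochberg over all genes), where 0.595% of all genes tested passed in either direction. At an unadjusted p under 0.05 the same fit counted 22 members lower (35.5%, where 8.98% of all genes were lower) and 1 higher (1.61%, where 8.86% of all genes were higher). Without pairing DESeq2 called 7 members lower and 0 higher at the adjusted threshold, where it called 3.62% of all genes lower and 3.38% higher, and limma-voom called 0 members, where it called 0.644% of all genes. With the identifier as a block, 10 members fell (16.1%, where 3.81% of all genes fell) and 0 rose (where 3.82% of all genes rose). The paired log2 difference was below 0 in 54 members, with a median of -0.36 over the members against 0.01 over all genes tested. By CPM alone, 28 members (45.2%) were lower in the Tomato-positive library of all 4 pairs, where 15.5% of all genes were. Gstm2, Gstt3 and Txndc16 (4.84% of members) were higher in all 4 pairs, where 19.9% of all genes were. In 9 members (14.5%, where 5.69% of all genes) every Tomato-positive library lay below every Tomato-negative library, namely Gpx6, Mgst3, Prdx1, Prdx3, Prdx5, Prdx6, Sod2, Txn2 and Txndc15. Without pairing, the adjusted p of the 10 members lay between 0.0778 and 0.425. The paired calls depended on which pairs were in the fit: 2 of the 10 (Gpx6 and Gstm5) passed without CKD523_2, 1 (Gpx6) without CKD523_3, 2 (Gpx6 and Gsta2) without CKD627_2 and 9 (all but Prdx1) without CKD627_1. Without CKD627_1 the test also called Gclm, Gstz1, Mgst3 and Nqo1 lower and Gstm2 higher. Shares over all genes are not given for the fits that leave out a pair. Summed over all members but Gpx3, whose counts exceed those of the others together in every library, levels were 7106 to 8027 CPM in Tomato-positive and 8411 to 10176 CPM in Tomato-negative libraries, lower in 4 of 4 pairs and without overlap. With Gpx3 the sums were 19139 to 42969 CPM in Tomato-positive and 20543 to 52001 CPM in Tomato-negative libraries, lower in 3 of 4 pairs and with wide overlap.

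**Figure D1:**
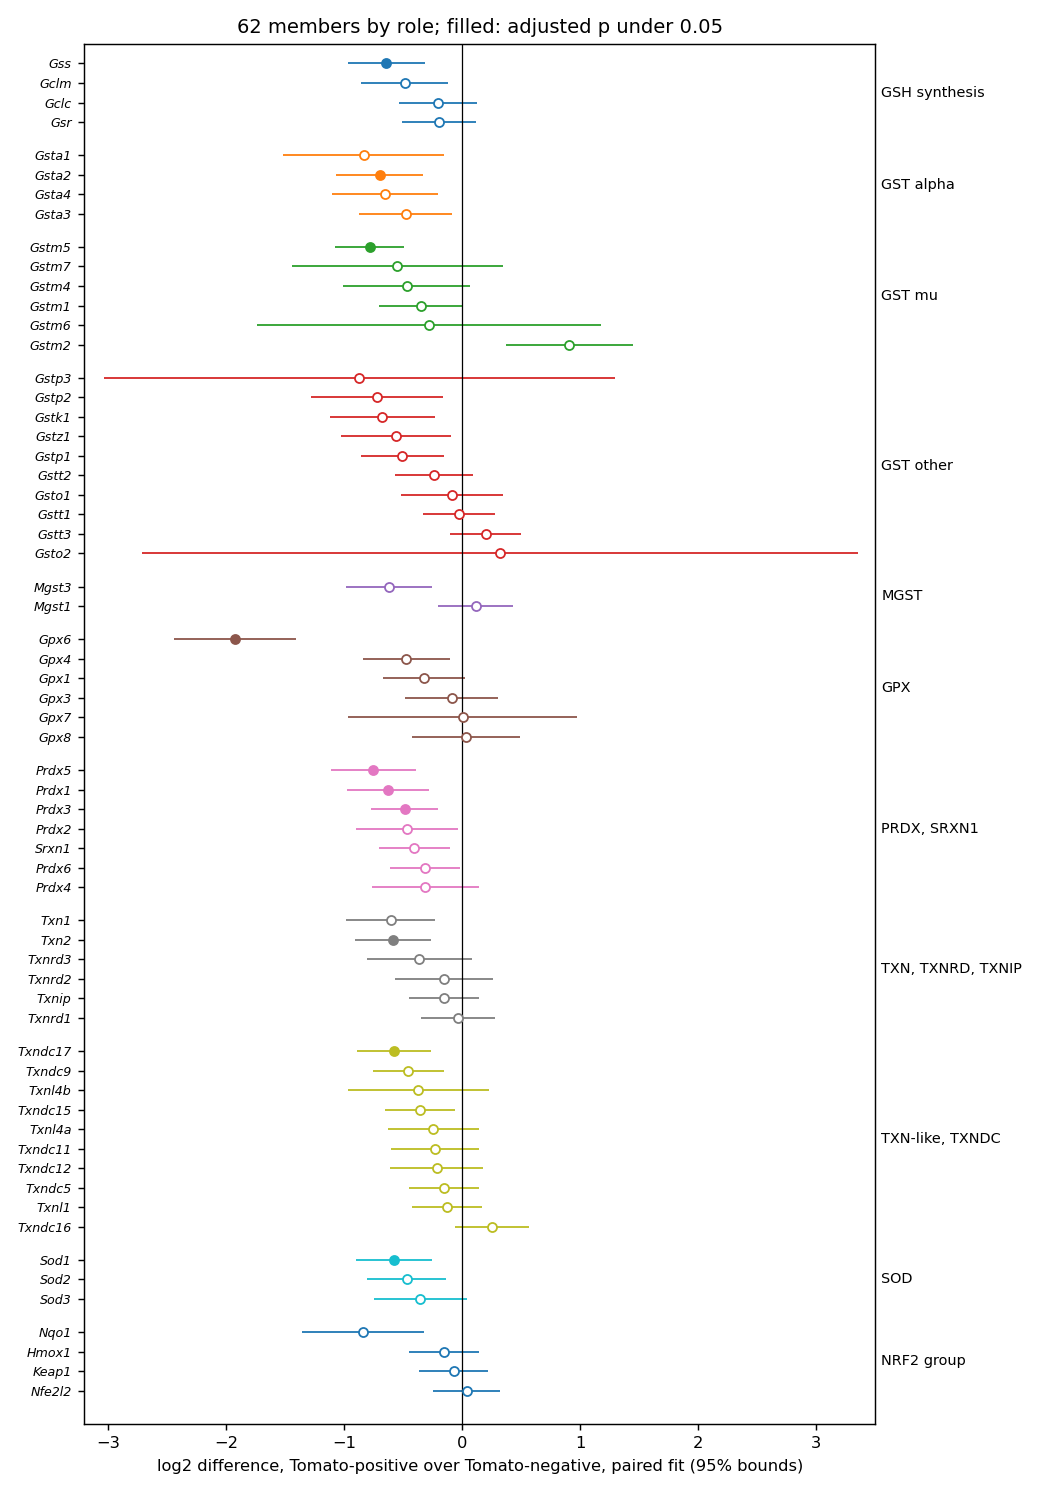
Paired log2 difference (Tomato-positive over Tomato-negative, x axis) of the 62 members, grouped by role, with 95% bounds; filled points passed an adjusted p of 0.05. Of the 62 points 54 lie below 0, and Gpx6 lies farthest from 0 at -1.92.

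CPM values below are given for CKD627_1, CKD627_2, CKD523_2 and CKD523_3, in that order, and log2 differences come from the paired fit unless another is named. Role groups held 2 to 10 members. Their counts below can be read against the shares of all genes that fell (3.81%), rose (3.82%) or were lower in all 4 pairs (15.5%). Peroxiredoxins reduce peroxides with electrons from thioredoxin, and 3 of 7 members of their group, counting sulfiredoxin, fell (group median -0.47). This was the largest count of any role group, and 6 of 7 were lower in all 4 pairs. Prdx5 (chromosome 19, 6906697 to 6910106, GRCm38), a peroxiredoxin of mitochondria, peroxisomes and cytosol, lay at 519.5, 585, 738 and 686 CPM in Tomato-positive libraries, against 1196, 849, 1027 and 1069.6 CPM in Tomato-negative libraries. The groups did not overlap, and the largest gap was in pair CKD627_1. Its log2 difference was -0.75 ± 0.16 (SE; adjusted p = 0.0256), a fall of 40.6%. Its exons share 409 bases with Trmt112 on the opposite strand, and with the strand setting of the counting not given, reads there cannot be told apart. Prdx1 (chromosome 4, 116685544 to 116700822), a cytosolic form, had 324, 324, 377 and 360.2 CPM in Tomato-positive libraries, against 659, 405, 554 and 496 CPM in Tomato-negative libraries. The Tomato-positive values were close to each other and all below the lowest Tomato-negative one, and the log2 difference was -0.63 ± 0.15 (SE; adjusted p = 0.0413). Prdx3 (chromosome 19, 60864051 to 60874556), the form of mitochondria, had 147, 109, 139 and 134 CPM in Tomato-positive libraries, against 198, 168, 175 and 179 CPM in Tomato-negative libraries. Again the groups did not overlap, with a log2 difference of -0.49 ± 0.12 (SE; adjusted p = 0.0487). Prdx2, also cytosolic and the closest copy of Prdx1 (69.5% identical coding bases), had 227, 216, 203 and 219.5 CPM in Tomato-positive libraries and 505, 299, 214 and 224 CPM in Tomato-negative libraries. The Tomato-negative library of CKD627_1 stood far above the others, and the log2 difference of -0.47 ± 0.19 (SE; adjusted p = 0.171) did not pass. Exons of Prdx2 share 177 bases with Rnaseh2a and 173 with Junb, both on the opposite strand. Srxn1, sulfiredoxin, which restores overoxidised peroxiredoxins, had a log2 difference of -0.40 ± 0.13 (SE; adjusted p = 0.103). The summed level of the 7 genes was 1475 to 1741 CPM in Tomato-positive and 2032 to 2925 CPM in Tomato-negative libraries, without overlap.

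**Figure D2:**
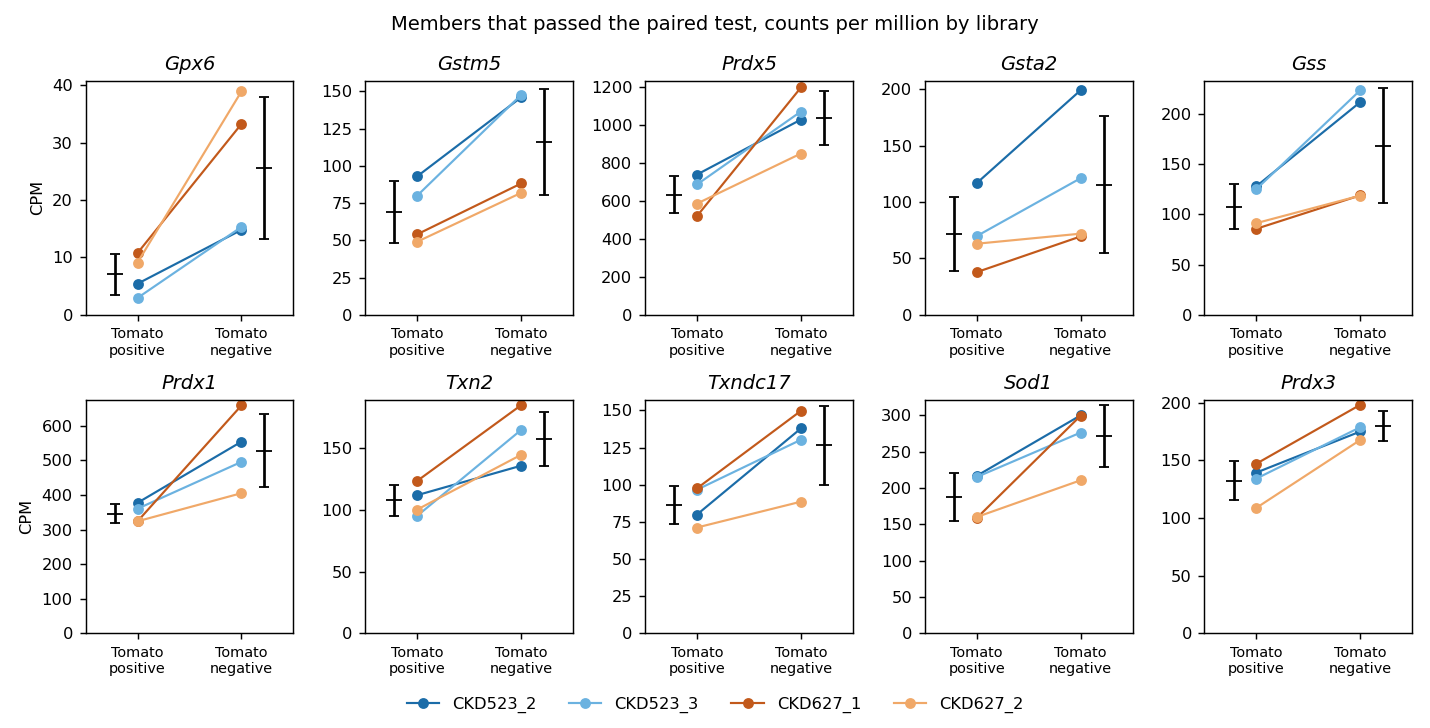
CPM (y axis, from 0) of the 10 members that fell in the paired test, by library; lines join libraries that share an identifier, and bars beside the points give the mean and SD of the 4 libraries of a group. All 10 are lower in the Tomato-positive library of every pair, and in Gpx6, Prdx5, Prdx1, Txn2 and Prdx3 the groups do not overlap.

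Among the 6 glutathione peroxidases 1 fell and 0 rose (group median -0.21). Gpx6 (chromosome 13, 21312125 to 21319624), a relative of the secreted enzyme Gpx3, showed the farthest difference from 0 of all members. It lay at 10.8, 9.10, 5.42 and 2.94 CPM in Tomato-positive libraries, against 33.3, 38.9, 14.8 and 15.3 CPM in Tomato-negative libraries. The groups did not overlap, and the log2 difference was -1.92 ± 0.23 (SE; adjusted p = 0.00296), a fall of 73.6%. Its fall was nearly the same within both prefixes, at -1.90 in CKD627 and -1.93 in CKD523. Its coding sequence is 69.2% identical to that of Gpx3. Gpx3 (chromosome 11, 54902453 to 54910377), the plasma glutathione peroxidase that the kidney makes and secretes, lay at 12033, 18715, 34941 and 26963 CPM in Tomato-positive libraries and 10367, 15040.0, 41905 and 37284 CPM in Tomato-negative libraries. It was higher in the Tomato-positive library of both CKD627 pairs and lower in that of both CKD523 pairs, and the log2 difference of -0.09 ± 0.17 (SE; adjusted p = 0.796) did not pass. Gpx3 alone held 1.04 to 4.19% of all counts of a library. Gpx1, the cytosolic and mitochondrial selenoenzyme, had 742, 967, 1518 and 1154 CPM in Tomato-positive libraries and 972, 927, 1802 and 1709.7 CPM in Tomato-negative libraries. The groups overlapped, and the log2 difference was -0.32 ± 0.15 (SE; adjusted p = 0.228). Gpx4, which reduces lipid peroxides in membranes and guards against ferroptosis, had 31.6, 31.2, 48.5 and 39.2 CPM in Tomato-positive libraries and 57.4, 41.2, 50.8 and 52.2 CPM in Tomato-negative libraries. All 4 pairs were lower in Tomato-positive cells, without passing the test, at a log2 difference of -0.47 ± 0.16 (SE; adjusted p = 0.114).

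Glutathione synthesis and recycling counted 4 members, of which 1 fell and 0 rose (group median -0.35). Gss (chromosome 2, 155563181 to 155592810), glutathione synthetase, adds glycine in the last step. It lay at 85.6, 91.2, 128 and 125 CPM in Tomato-positive libraries, against 119, 119, 212 and 224 CPM in Tomato-negative libraries. Every pair was lower in the Tomato-positive library, while the groups overlapped, as both CKD523 libraries of each group lay above the CKD627 libraries of that group. The log2 difference was -0.64 ± 0.14 (SE; adjusted p = 0.0314), a fall of 36.0%. Exons of Gss share 395 bases with Acss2 and 385 and 322 bases with the antisense transcripts Gssos2 and Gssos1, all on the opposite strand. Gclc, the catalytic subunit of the rate-limiting ligase, had 229.9, 233, 237 and 221 CPM in Tomato-positive libraries and 198, 286, 277 and 283 CPM in Tomato-negative libraries. The Tomato-positive values were nearly level, and the lowest value of all was that of the Tomato-negative library CKD627_1, so that the pairs did not all point one way (log2 difference -0.21, SE 0.15, adjusted p = 0.418). Gclm, the modifier subunit of that ligase, had 114, 106, 122 and 123 CPM in Tomato-positive libraries and 118, 131, 202 and 201 CPM in Tomato-negative libraries. All 4 pairs were lower, by more in CKD523 (-0.79) than in CKD627 (-0.21), and the pooled log2 difference of -0.49 ± 0.16 (SE; adjusted p = 0.104) did not pass. Gsr, the reductase that regenerates glutathione with NADPH, had a log2 difference of -0.20 ± 0.14 (SE; adjusted p = 0.418).

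Glutathione transferases couple glutathione to reactive compounds, and they fall into classes that share sequence. Of the 4 alpha class members 1 fell (group median -0.68), of the 6 mu class members 1 fell (median -0.41), and of the 10 members of the pi, theta, kappa, omega and zeta classes 0 passed in either direction (median -0.37). Gsta2 (chromosome 9, 78331018 to 78355788) lay at 37.9, 63.1, 117 and 69.8 CPM in Tomato-positive libraries, against 69.6, 72.0, 199 and 121 CPM in Tomato-negative libraries. Every pair was lower in Tomato-positive cells, with only a small gap in CKD627_2, and the log2 difference was -0.70 ± 0.16 (SE; adjusted p = 0.0351). Gsta1, whose coding sequence is 97.6% identical, had a log2 difference of -0.83 ± 0.30 (SE; adjusted p = 0.129), and since the treatment of reads that match both is not given, the values of this pair of genes are uncertain. Gsta3, with a log2 difference of -0.48 ± 0.17 (SE; adjusted p = 0.132), was lower in 3 of 4 pairs.

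Gstm5 (chromosome 3, 107895821 to 107898686), a mu class gene, lay at 54.1, 49.1, 93.0 and 80.0 CPM in Tomato-positive libraries, against 88.2, 81.9, 146 and 148 CPM in Tomato-negative libraries. Each Tomato-positive library was lower than its partner by a similar factor, and the log2 difference was -0.78 ± 0.13 (SE; adjusted p = 0.0112), a fall of 41.9%. Its exons share 178 bases with the antisense gene 4933431E20Rik. Another gene of the mu cluster, Gstm2 (chromosome 3, 107981702 to 107986453), pointed the other way, with 151, 107, 108 and 166 CPM in Tomato-positive libraries and 115, 83.1, 48.0 and 45.0 CPM in Tomato-negative libraries. The Tomato-positive library was higher in all 4 pairs, with wide gaps in CKD523 and narrow ones in CKD627. The log2 difference of 0.91 ± 0.24 (SE; adjusted p = 0.0531) did not pass with all 4 pairs, and passed without CKD627_1. Coding sequences of Gstm2 and Gstm7 are 84.9% identical. Gstm1, the mu class gene with the highest level per length, had 126, 180.4, 232 and 319 CPM in Tomato-positive libraries and 204, 199, 329 and 297 CPM in Tomato-negative libraries. Its groups overlapped (log2 difference -0.35, SE 0.16, adjusted p = 0.211).

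In the remaining transferase classes Gstk1, the kappa form of mitochondria and peroxisomes, had the smallest paired p and lay at 17.8, 32.0, 23.7 and 21.1 CPM in Tomato-positive libraries and 41.6, 35.9, 35.7 and 31.8 CPM in Tomato-negative libraries. Each pair had the lower value in its Tomato-positive library, but the log2 difference of -0.68 ± 0.20 (SE; adjusted p = 0.0733) did not pass. Gstp1 and Gstp2, which are 98.1% identical in coding sequence and so are uncertain for the same reason as the alpha pair, had log2 differences of -0.51 ± 0.16 (SE; adjusted p = 0.0864) and -0.72 ± 0.25 (SE; adjusted p = 0.110). Gstz1, which also works in tyrosine breakdown, had 61.1, 68.2, 78.7 and 72.4 CPM in Tomato-positive libraries and 60.3, 76.9, 151 and 143 CPM in Tomato-negative libraries. Its gap was wide in both CKD523 pairs, narrow in CKD627_2 and absent in CKD627_1, with a pooled log2 difference of -0.56 ± 0.21 (SE; adjusted p = 0.134). Gsto1, an omega form, was lower in the Tomato-positive library of both CKD627 pairs and higher in that of both CKD523 pairs. Of the microsomal forms, which sit in membranes, Mgst3 had 77.7, 83.7, 86.9 and 83.4 CPM in Tomato-positive libraries and 164, 132, 106 and 104 CPM in Tomato-negative libraries. These groups did not overlap, and the log2 difference of -0.62 ± 0.16 (SE; adjusted p = 0.0505) lay just outside the threshold. Mgst1 had a log2 difference of 0.12 ± 0.14 (SE; adjusted p = 0.653), with 95% bounds of -0.20 to 0.43.

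Thioredoxins are small proteins that reduce disulfides, and their reductases recharge them with NADPH. Of 6 genes of this group 1 fell and 0 rose (median -0.26). Txn2 (chromosome 15, 77915047 to 77929006), the mitochondrial thioredoxin, lay at 124, 100.5, 112 and 95.4 CPM in Tomato-positive libraries, against 185, 145, 136 and 165 CPM in Tomato-negative libraries. The groups did not overlap, and the log2 difference was -0.58 ± 0.14 (SE; adjusted p = 0.0405). Txn1, the cytosolic form, had a log2 difference of -0.61 ± 0.17 (SE; adjusted p = 0.0616) and was lower in all 4 pairs. Txnrd1, the cytosolic reductase and a known NRF2 target, had 244, 252, 251 and 267 CPM in Tomato-positive libraries and 212, 229, 298 and 279 CPM in Tomato-negative libraries. Its groups overlapped, and the log2 difference was -0.03 ± 0.14 (SE; adjusted p = 0.914) with 95% bounds of -0.35 to 0.28. Txnip, which binds and inhibits thioredoxin, had a log2 difference of -0.15 ± 0.13 (SE; adjusted p = 0.514) with bounds of -0.45 to 0.14, and its exons share 606 bases with the antisense gene Gm15441. Among the 10 thioredoxin-like and thioredoxin domain genes 1 fell (median -0.24). Txndc17 (chromosome 11, 72207547 to 72210015), a small cytosolic relative of thioredoxin, had 97.6, 71.2, 79.9 and 96.6 CPM in Tomato-positive libraries, against 149.8, 88.6, 138 and 130.3 CPM in Tomato-negative libraries. It was lower in every pair (log2 difference -0.58, SE 0.14, adjusted p = 0.0396), while the groups overlapped through the low Tomato-negative library of CKD627_2. Txndc16 was the 1 member (1.61%, where 7.13% of all genes were) whose Tomato-positive libraries all lay above the Tomato-negative ones, and its difference was small and did not pass (log2 difference 0.25, SE 0.14, adjusted p = 0.300).

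Superoxide dismutases turn superoxide into hydrogen peroxide, and 1 of the 3 fell (median -0.47). Sod1 (chromosome 16, 90220754 to 90226329), the copper and zinc enzyme of the cytosol, lay at 159, 160.1, 217 and 215 CPM in Tomato-positive libraries, against 299.7, 211, 300.1 and 276 CPM in Tomato-negative libraries. It was lower in every pair, and the groups met between the Tomato-negative library of CKD627_2 and the Tomato-positive libraries of CKD523. Its log2 difference was -0.57 ± 0.14 (SE; adjusted p = 0.0439). Sod2, the manganese enzyme of mitochondria, had 148, 190.0, 199.6 and 178 CPM in Tomato-positive libraries and 228, 208, 254 and 275 CPM in Tomato-negative libraries. These groups did not overlap, but the log2 difference of -0.47 ± 0.15 (SE; adjusted p = 0.0889) did not pass. Sod3, the secreted form, had 132, 174, 341 and 354 CPM in Tomato-positive libraries and 132, 171, 519 and 564 CPM in Tomato-negative libraries. The CKD627 pairs were nearly equal and the CKD523 pairs were lower in Tomato-positive cells, with a pooled log2 difference of -0.35 ± 0.17 (SE; adjusted p = 0.246).

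Neither regulator passed the test in either fit. Nfe2l2, which encodes NRF2, lay at 222, 202, 156 and 175 CPM in Tomato-positive libraries and 225, 209, 154 and 137 CPM in Tomato-negative libraries. In both groups the CKD627 libraries lay above the CKD523 libraries, but Nfe2l2 did not pass the prefix comparison described below (log2 difference 0.27, SE 0.13, adjusted p = 0.173). The Tomato log2 difference was 0.04 ± 0.13 (SE; adjusted p = 0.888) with 95% bounds of -0.25 to 0.32. Keap1, the adaptor that marks NRF2 for breakdown, had a log2 difference of -0.07 ± 0.13 (SE; adjusted p = 0.778) with bounds of -0.36 to 0.22. Hmox1, heme oxygenase and a well known target, had 49.4, 51.2, 69.2 and 78.2 CPM in Tomato-positive libraries and 58.5, 56.8, 79.2 and 71.1 CPM in Tomato-negative libraries. The groups overlapped widely (log2 difference -0.15, SE 0.13, adjusted p = 0.517). Nqo1, a quinone reductase often read as a marker of NRF2 activity, had 21.3, 18.4, 33.6 and 17.5 CPM in Tomato-positive libraries and 23.1, 27.6, 69.6 and 46.8 CPM in Tomato-negative libraries. It was lower in all 4 pairs, the differences being wide in CKD523 and small in CKD627_1, and the pooled log2 difference of -0.84 ± 0.23 (SE; adjusted p = 0.0608) did not pass. Levels of RNA do not show how much NRF2 protein was present, which was not measured.

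Levels of different members can be compared only per length, as mean CPM over the 8 libraries per kilobase of exon. Gpx3 stood far ahead with 13600.0 CPM per kilobase. Gpx1 followed with 849, Prdx5 with 389.8, Txn1 with 238, Txnip with 175, Gstm1 with 160.1 and Prdx1 with 144 CPM per kilobase. Gpx6, the member with the widest fall, had 11.9 CPM per kilobase, and the lowest was Gsto2 with 0.464.

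Over both Tomato groups, members were also lower in CKD627 than in CKD523 libraries more often than all genes were. Counts were summed over the 2 libraries of each identifier, and the 2 sums of CKD627 were compared with the 2 of CKD523. In CKD627, 17 members were lower (27.4%, where 12.6% of the 15398 genes tested were) and 6 were higher (9.68%, where 9.15% of all genes were). The share of higher members was thus near that of all genes. The median log2 difference was -0.24 over members and 0.00 over all genes. All 23 members that passed had the same sign in Tomato-positive and in Tomato-negative libraries taken alone. The 23 were picked on sums of these same libraries, so that agreement is no separate evidence. Sod3 lay at 132, 174, 132 and 171 CPM in CKD627 libraries (the Tomato-positive ones first), against 341, 354, 519 and 564 CPM in CKD523 libraries. Every CKD627 library was far below every CKD523 library, and the log2 difference was -1.74 ± 0.16 (SE; adjusted p = 5.73e-05). Gpx3 had 12033, 18715, 10367 and 15040.0 CPM in CKD627 libraries, against 34941, 26963, 41905 and 37284 CPM in CKD523 libraries, again without overlap (log2 difference -1.51, SE 0.18, adjusted p = 2.38e-04). Gsta3, with a log2 difference of -1.05 ± 0.14 (SE; adjusted p = 3.68e-04), and Gss, with -0.93 ± 0.13 (SE; adjusted p = 4.31e-04), were the next by p. The other members that were lower in CKD627 were Gclm, Gpx1, Gsta1, Gsta2, Gstm1, Gstm5, Gstt2, Gstz1, Hmox1, Nqo1, Sod1, Sod2 and Txnrd1.

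Txnip was the member with the widest difference towards CKD627, at 826, 632, 990.3 and 747 CPM in CKD627 libraries, against 268, 327, 293 and 288 CPM in CKD523 libraries. The CKD627 values all lay above the highest CKD523 value, with a log2 difference of 1.24 ± 0.16 (SE; adjusted p = 3.41e-04). Gsto1 had 103, 122, 169.8 and 138 CPM in CKD627 libraries, against 63.9, 73.3, 51.6 and 55.2 CPM in CKD523 libraries (log2 difference 0.94, SE 0.13, adjusted p = 5.59e-04). Mgst1 had 189, 197, 177 and 147 CPM in CKD627 libraries, against 99.7, 83.1, 92.6 and 83.6 CPM in CKD523 libraries (log2 difference 0.81, SE 0.13, adjusted p = 0.00142). Neither of these overlapped between prefixes. Gpx6, Gpx8 and Gstt1 were the other members higher in CKD627. Of the 10 members that fell in Tomato-positive cells, Gss, Gsta2, Gstm5 and Sod1 were lower in CKD627 and Gpx6 was higher, while the 3 peroxiredoxins, Txn2 and Txndc17 did not pass in this comparison. All 15 proximal tubule markers were lower in CKD627 (median log2 difference -1.86), with summed levels of 4510 to 7027 CPM in CKD627 and 12788 to 21980 CPM in CKD523 libraries. Meanwhile 7 of 8 principal cell, 6 of 6 loop of Henle and 6 of 6 endothelial markers were higher (medians 2.19, 1.65 and 1.84). So were 3 of 6 intercalated cell markers, 1 of 4 distal tubule markers and 1 fibroblast marker. Macrophage markers were mixed, with 2 lower and 1 higher. The part of the markers in the differences between prefixes was not tested, and what else differed between prefixes cannot be told apart from them.

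**Figure D3:**
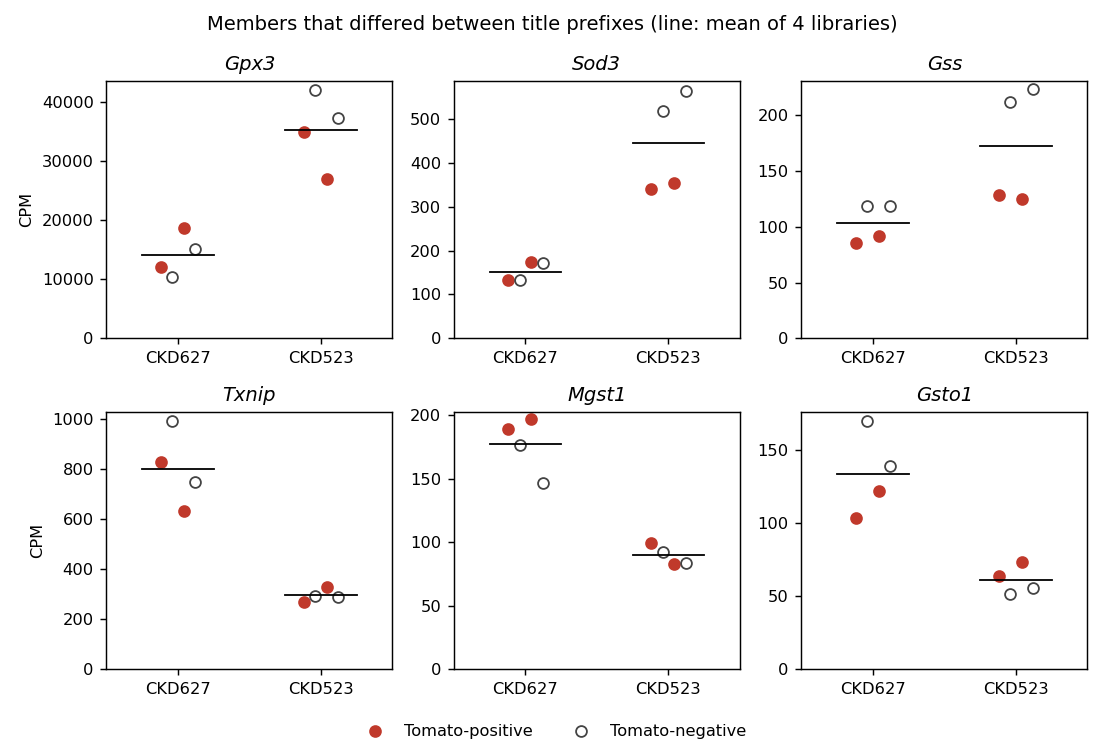
CPM (y axis, from 0) of 3 members that were lower in CKD627 (top) and 3 that were higher (bottom), by library; filled points are Tomato-positive, open points Tomato-negative, and lines are means of 4 libraries. In all 6 genes the 4 CKD627 libraries lie on one side of the 4 CKD523 libraries.

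The Tomato difference was then set side by side in the 2 prefixes, whose libraries are separate. The median log2 difference of the members was -0.39 in CKD627 (all genes -0.01) and -0.38 in CKD523 (all genes 0.00). The log2 difference was below 0 in both prefixes for 47 members, above 0 in both for 3 and of opposite sign for 12. Tested on its own, the change of the Tomato difference between prefixes (CKD627 minus CKD523) passed for 0 of 62 members with edgeR, where 0.14% of all genes passed. At an unadjusted p under 0.05 there were 4 members below 0 (6.45%, where 5.66% of all genes were) and 6 above 0 (9.68%, where 8.16% of all genes were), shares near those of all genes. Of the other tools limma-voom called 0 members, where it called 0.441% of all genes, and DESeq2 called 3 (4.84%, where it called 3.16% of all genes). These 3 were Gstm2 (edgeR log2 difference -1.08, SE 0.27, adjusted p = 0.137; DESeq2 adjusted p = 0.0231), Gstz1 (edgeR log2 difference 0.95, SE 0.23, adjusted p = 0.126; DESeq2 adjusted p = 0.0293) and Gpx3 (edgeR log2 difference 0.70, SE 0.18, adjusted p = 0.153; DESeq2 adjusted p = 0.0454). In Gstm2 the Tomato difference was 0.33 in CKD627 and 1.49 in CKD523, and in Gstz1 it was -0.12 in CKD627 and -1.03 in CKD523. In Gpx3 it was 0.25 in CKD627 and -0.43 in CKD523. Sod3 (edgeR log2 difference 0.72, SE 0.21, adjusted p = 0.188), with Gstz1 and Gpx3, completed the 3 smallest p among members above 0, and Gsto1 (edgeR log2 difference -0.74, SE 0.26, adjusted p = 0.265) and Prdx2 (edgeR log2 difference -0.69, SE 0.27, adjusted p = 0.307), with Gstm2, the 3 smallest among members below 0.

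**Figure D4:**
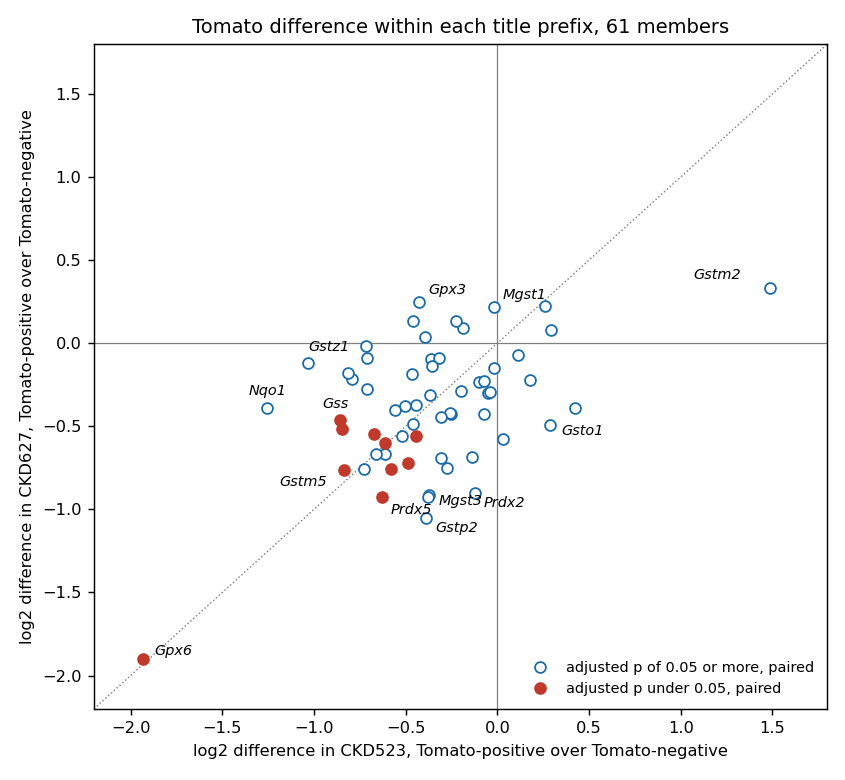
Tomato-positive over Tomato-negative log2 difference within CKD627 (y axis) against that within CKD523 (x axis) for 61 members; red points passed the paired test and the dotted line marks equal values. Gsto2, with few counts, lies outside the range and is not drawn. All 10 red points lie below 0 on both axes. They were picked as lower on these same libraries, so their shared sign is no separate evidence.

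Genes that work beside the members were counted from 6 lists, of which 91 of 96 genes were tested. Without pairing 0 of 91 passed with edgeR, where 0.595% of all genes passed, and 0 with limma-voom, where 0.644% of all genes passed. At an unadjusted p under 0.05 edgeR counted 23 lower and 4 higher, where 8.98% of all genes were lower and 8.86% higher. DESeq2 called 10 lower and 3 higher at the adjusted threshold, where it called 3.62% of all genes lower and 3.38% higher. In the paired fit 14 fell (15.4%, where 3.81% of all genes fell) and 2 rose (2.2%, where 3.82% of all genes rose), and the counts of single lists below can be read against the same shares. Of 22 tested genes of glutathione breakdown and uptake 6 fell and 0 rose, Ggt1, Ggct, Lap3, Esd and the mitochondrial carriers Slc25a39 and Slc25a11. Ggt1, the brush border enzyme that begins the breakdown of glutathione outside the cell, lay at 167, 212, 263 and 293 CPM in Tomato-positive libraries, against 340.0, 345, 722 and 831 CPM in Tomato-negative libraries. It was lower in every pair and without overlap, with a log2 difference of -1.21 ± 0.18 (SE; adjusted p = 0.00718). Ggct, which continues that breakdown within the cell, had a log2 difference of -1.10 ± 0.20 (SE; adjusted p = 0.0147). Of 26 other NRF2 targets 3 fell and 0 rose (list median -0.02), Cbr1, a carbonyl reductase (log2 difference -0.82, SE 0.16, adjusted p = 0.0196), Fth1, the ferritin heavy chain (log2 difference -0.63, SE 0.15, adjusted p = 0.0413), and Esd.

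In the list of glutaredoxins, methionine sulfoxide reductases and catalase 2 of 16 fell and 1 rose. Msrb1 (log2 difference -0.74, SE 0.15, adjusted p = 0.0207) and Msra (log2 difference -0.60, SE 0.14, adjusted p = 0.0389), which repair oxidised methionine, were the 2 that fell. Sesn3, a sestrin that also acts on nutrient signalling, rose, with 56.1, 48.0, 69.7 and 67.1 CPM in Tomato-positive libraries, against 17.6, 27.1, 25.6 and 31.2 CPM in Tomato-negative libraries (log2 difference 1.22, SE 0.17, adjusted p = 0.00620). Of 12 genes of NADPH supply 3 fell, the folate enzymes Aldh1l1 (log2 difference -1.02, SE 0.15, adjusted p = 0.00704) and Mthfd1 and the mitochondrial transhydrogenase Nnt (log2 difference -0.63, SE 0.14, adjusted p = 0.0318). Of 9 tested producers of superoxide or hydrogen peroxide 1 fell, the peroxisomal oxidase Hao2 (log2 difference -1.53, SE 0.20, adjusted p = 0.00462), and Cyba, a subunit of NADPH oxidases, had a log2 difference of -0.58 ± 0.15 (SE; adjusted p = 0.0524). Of 13 NRF2 partners and repressors 1 rose. This was Nfe2l3, a relative of NRF2, with 34.3, 23.5, 22.8 and 22.7 CPM in Tomato-positive libraries, against 16.7, 11.6, 5.27 and 5.03 CPM in Tomato-negative libraries, and a log2 difference of 1.53 ± 0.25 (SE; adjusted p = 0.0112). Its Tomato-positive values all lay above the Tomato-negative ones. Mafg, a small Maf partner of NRF2, was higher in all 4 pairs without passing (log2 difference 0.55, SE 0.17, adjusted p = 0.0861).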

How the data were processed

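RNA of 8 libraries was counted by gene. The authors deposited raw counts for 25240 symbols in 1 table; reads were aligned with subread, per the file headers, and mm10, edgeR 3.32.1 and limma 3.46.0 are named in the submitters' processing notes. The sources used here name no counter, annotation, strand setting or treatment of reads with several matches, so overlapping genes and close copies are uncertain. Exon bases are shared with another gene in 15 members, namely Gclm, Gss, Gstm5, Gstt3, Gstz1, Keap1, Prdx2, Prdx5, Txndc5, Txndc11, Txndc16, Txnip, Txnl1, Txnl4a and Txnrd2. Most of these overlaps are on opposite strands, while those of Gstt3, Txnl4a and, with Gm6061, Gclm are on the same strand. Members and gene lists were chosen with earlier results of these data known.

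In the Tomato fits on all 8 libraries, genes were kept with filterByExpr (10 counts in 4 libraries, 15 in all) and scaled with TMM factors (0.910 to 1.07). Fits on sums per identifier or on fewer libraries were filtered by their own, smaller groups and had factors of their own. The main test of Tomato-positive over Tomato-negative was the 2-sided quasi-likelihood test of edgeR 4.0.16 (R 4.3.3) without a block, with Benjamini-Hochberg adjustment over all genes tested and a threshold of 0.05. The SE is the log2 difference over the root of F, and CPM are scaled by library totals. Libraries that share an identifier correlated, after removal of group means, at 0.464, 0.321, 0.330 and 0.465 across genes (CKD523_2, CKD523_3, CKD627_1, CKD627_2), all above 0.1, so results of a paired fit, blocked by identifier, stand beside the main ones. Libraries of the other identifier of the same prefix correlated at 0.296 to 0.467. For the Tomato-positive libraries of CKD523_3 (0.337) and CKD627_1 (0.467) this was above the value of their own identifier. Prefix means were not removed, so the check cannot set a shared identifier apart from a shared prefix. Prefixes were compared on sums per identifier, and an interaction term compared the Tomato difference between them. Members named were 21 chosen whatever their result, those past the threshold, the smallest paired p per role, up to 3 per direction for prefix and interaction, and 2 per list outside the members; other names were chosen after their values were seen. The scripts were tested on simulated data. Alternatives were other scalings and filters, DESeq2 1.42.0, limma-voom (limma 3.58.1), the prefix as a covariate or alone, and leaving out libraries or pairs. Positions and coding sequences came from GENCODE M21 (GRCm38), where all 62 symbols matched 1 gene. Likeness was to be computed between proteins; coding bases were aligned instead, with Biopython 1.88. Figures were drawn with matplotlib 3.10.9.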

Additional observations from a re-analysis of the deposited data

Results flagged for a closer look

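Gclc lay at 198 CPM in the Tomato-negative library CKD627_1, far from the next lowest Tomato-negative value of 277 CPM, while the other two lay at 283 and 286 CPM. The gap was 0.905 of the range of the group, above Dixon's 95% critical value for 4 libraries. This was the 1 case among 68 groups of 4 libraries (34 named members), and chance alone gives such a gap in about 1 in 20 groups. The 4 Tomato-positive values of Gclc lay between 221 and 237 CPM.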

How the results depend on the processing

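Median log2 differences of the members stayed between -0.31 and -0.45 in all settings run. Of 986 values of named genes 22 had the other sign than the main value, in 7 members called in neither fit (Gpx3, Gsto1, Keap1, Mgst1, Nfe2l2, Txnip and Txnrd1). Among them Gpx3 was 0.25 in CKD627 alone against -0.24 unpaired, Nfe2l2 -0.01 against 0.03 with upper-quartile factors, and Txnrd1 0.01 against -0.03 paired with library size only. Counts of calls differed with the treatment of identifiers, the tool, the filter on low counts and the libraries in the fit. Shares of all genes called are not given for the covariate, single-prefix, library-size, no-filter and leave-out settings, nor for the paired DESeq2 and limma-voom fits. The counts of those settings thus cannot be read as results about the members. Without pairing, 0 members were called. With the replicate block 10 were lower, with the prefix as a covariate 12 lower and 1 higher, in CKD627 alone 1 lower, in CKD523 alone 19 lower and 1 higher, and with DESeq2 7 lower. For the paired count of 10 lower and 0 higher, dropping the block gave 0, DESeq2 19 lower and 1 higher, no filter on low counts 15 lower and 1 higher, limma-voom 13 lower and 1 higher, and leaving out 1 pair at a time 1 to 13 lower and 0 to 1 higher. The higher member was Gstm2. With DESeq2 the interaction gave 2 members above 0 and 1 below, against 0 and 0. Of the 91 genes of the lists, the unpaired fit called 0, the block 14 lower and 2 higher, the covariate 22 and 2, CKD627 alone 1 lower, CKD523 alone 33 lower and 9 higher (of 88), library size only 1 higher, DESeq2 10 lower and 3 higher, and leaving out 1 library 0 to 1 lower. Paired, DESeq2 gave 28 lower and 4 higher, no block 0 and 0, and leaving out 1 pair 3 to 15 lower and 1 to 4 higher. The cause of these changes was not tested, except that leaving out libraries also leaves fewer samples. The 23 calls between prefixes kept their sign in every setting run, all on the same libraries or some of them. Depth limits genes with few counts such as Gsto2, Gstp3 and Gstm6, whose bounds were wide.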
